A study of Mus musculus with 6 samples.

Results

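The genes described are the 10 that carry classical major histocompatibility complex (MHC) class I presentation in these libraries: the heavy chains *H2-K1* and *H2-D1*, the light chain *B2m*, the peptide transport and loading genes *Tap1*, *Tap2* and *Tapbp*, the immunoproteasome subunits *Psmb8*, *Psmb9* and *Psmb10*, and the regulator *Nlrc5*. They were taken by gene symbol, with earlier results of these data known, and all 10 were among the 24224 genes of the count table. RNA-seq was performed on alveolar type II (AT2) cells, the surfactant-producing cells of the lung alveolus, from wild-type (WT) C57BL/6J mice (C57/6J in the sample labels) that had aged naturally to 24 m (24 months) or 3 m (3 months), with no other treatment. There were 3 libraries of each age, and the cells of several mice were pooled for each library, so a library is a pool and not an animal. AT2 cells were sorted as CD45- CD31- CD326+ MHCII+, which means that cells were chosen in part for MHC class II protein, whereas class I was not part of the gate.

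Class I molecules carry short peptides made inside the cell to its surface, where CD8+ T cells read them. The heavy chain pairs with beta-2 microglobulin, the product of *B2m*, and with a peptide. The proteasome cuts the peptides, the TAP1 and TAP2 transporter moves them into the endoplasmic reticulum (ER), and tapasin, the product of *Tapbp*, holds the empty heavy chain next to the transporter until a peptide is bound. In the immunoproteasome the catalytic subunits encoded by *Psmb8*, *Psmb9* and *Psmb10* take the places of those encoded by *Psmb5*, *Psmb6* and *Psmb7*. Interferon-gamma induces most of these genes, and NLRC5 acts as a transactivator at class I promoters.

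The libraries held between 28827930 and 32394985 counts each. Of the 24224 genes, 14899 passed the filter on low counts and were tested, with all 10 class I pathway genes among them. The summed level of 10 AT2 markers lay between 155428 and 163863 CPM (counts scaled to a common library size) in 24 m libraries and between 138919 and 228449 CPM in 3 m libraries. The 9 markers other than *Sftpc* summed to between 71612 and 72114 CPM at 24 m and between 78176 and 89322 CPM at 3 m. Their sum was thus lower in every 24 m library. Of the 10 markers, 4 had every 24 m library below every 3 m library and 1 had every one above. *Epcam*, which encodes the sorted antigen CD326, was at 181, 158 and 164 CPM in 24 m libraries and at 198, 124 and 168 CPM in 3 m libraries. The 3 m replicate 2 library stood apart: 693 genes had no count in it although every other library held 20 counts or more of them, against 0 to 15 such genes in any other library. Each result below is therefore also given without it where that matters. *Ptprc*, which encodes the excluded leukocyte antigen CD45, was at 3.44, 9.59 and 2.38 CPM in 24 m libraries and at 0, 0 and 0.190 CPM in 3 m libraries. *Pecam1*, which encodes the excluded endothelial antigen CD31, was at 5.03, 4.12 and 0.773 CPM in 24 m libraries and at 2.41, 2.71 and 0.253 CPM in 3 m libraries. In bulk RNA, more cells of a type and more RNA per cell cannot be told apart.

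By the GENCODE annotation of GRCm38, 7 of the 10 genes lie on chromosome 17, in the MHC, *B2m* lies on chromosome 2, and *Nlrc5* and *Psmb10* lie on chromosome 8. *Tap1*, *Psmb9*, *Psmb8* and *Tap2* are neighbours there. RefSeq promoter windows of 250 bases before to 50 bases after the transcript start (GRCm38.p6, whereas the counts were made on GRCm39) were found for 8 of the 10 genes, not for *Tap2* and *Nlrc5*. The windows of both heavy chains and of *B2m* are shown because these are the genes that DESeq2 called higher at 24 m, that of *Tap1* because it is shared with *Psmb9*, and that of *Tapbp* because its 24 m values lay inside its 3 m range. Capitals mark matches on either strand to 5 short motifs: GAAANNGAA, part of the interferon-stimulated response element; TTCNNNGAA, the gamma-activated site; GGGATTCC, a kappa B site; CCAAT, the core of the Y box bound by NF-Y; and TGACG, the core of the X2 box bound by CREB and ATF1.
H2-K1, chr17:34000298-34000597, minus strand: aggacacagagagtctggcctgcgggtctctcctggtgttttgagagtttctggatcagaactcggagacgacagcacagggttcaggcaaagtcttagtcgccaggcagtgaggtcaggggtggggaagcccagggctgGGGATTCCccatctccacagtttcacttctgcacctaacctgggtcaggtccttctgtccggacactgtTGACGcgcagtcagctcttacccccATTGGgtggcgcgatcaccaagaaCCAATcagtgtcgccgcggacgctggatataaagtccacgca
H2-D1, chr17:35262844-35263143, plus strand: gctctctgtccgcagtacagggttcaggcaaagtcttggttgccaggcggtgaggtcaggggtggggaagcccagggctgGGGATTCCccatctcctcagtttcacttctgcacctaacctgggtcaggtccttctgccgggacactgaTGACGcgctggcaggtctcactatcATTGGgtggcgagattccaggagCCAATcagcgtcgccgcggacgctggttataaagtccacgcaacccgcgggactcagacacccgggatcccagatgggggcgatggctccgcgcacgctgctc
B2m, chr2:122147437-122147736, plus strand: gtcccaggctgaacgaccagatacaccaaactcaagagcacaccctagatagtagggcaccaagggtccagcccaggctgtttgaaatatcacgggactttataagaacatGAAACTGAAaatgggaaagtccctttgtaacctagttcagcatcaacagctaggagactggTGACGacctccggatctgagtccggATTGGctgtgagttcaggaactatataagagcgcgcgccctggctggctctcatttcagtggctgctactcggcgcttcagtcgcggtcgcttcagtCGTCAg
Tap1, chr17:34187306-34187605, plus strand: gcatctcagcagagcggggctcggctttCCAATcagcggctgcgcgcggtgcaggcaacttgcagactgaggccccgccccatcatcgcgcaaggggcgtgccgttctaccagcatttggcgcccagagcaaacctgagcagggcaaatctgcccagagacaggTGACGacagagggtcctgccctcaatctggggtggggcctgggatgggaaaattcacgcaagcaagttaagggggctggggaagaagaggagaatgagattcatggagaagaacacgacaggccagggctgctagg
Tapbp, chr17:33919228-33919527, plus strand: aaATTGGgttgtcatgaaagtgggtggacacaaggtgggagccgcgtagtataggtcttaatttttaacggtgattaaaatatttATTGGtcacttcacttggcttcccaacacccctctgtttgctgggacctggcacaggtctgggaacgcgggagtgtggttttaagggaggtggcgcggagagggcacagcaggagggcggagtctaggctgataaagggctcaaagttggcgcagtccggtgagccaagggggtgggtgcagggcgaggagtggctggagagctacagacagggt

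The windows of both heavy chains were alike, with 206 of 227 aligned bases identical (90.7%). Both held GGGATTCC, which occurred in 1.06% of all 32851 windows, and the other 6 genes with a window lacked it. GAAANNGAA was found only in the window of *B2m* among the 8 genes (8.56% of all windows), and TTCNNNGAA only in that of *Psmb8* (8.30%). A window without GAAANNGAA may still hold another form of the response element, and other forms were not searched for. CCAAT was found in 6 of the 8 genes (37.4% of all windows) and TGACG in 5 (20.8%). In *H2-K1*, *H2-D1* and *B2m* the TGACG was followed by exactly 20 bases and then ATTGG, the reverse complement of CCAAT. This arrangement, chosen after the matches were seen, occurred in 31 of the 32851 windows (0.0944%), which belonged to 27 genes, *H2-M3* among them. The *Tap1* and *Psmb9* windows share 275 bases read on opposite strands, so their matches are the same letters counted for both genes, and the window of *Psmb10* held none of the 5. A match describes letters and does not show that a factor binds.

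The question of the comparison was how the transcripts of AT2 cells differ between 24 m and 3 m mice. Transcripts of both heavy chains and of the light chain were more than 2 times as abundant at 24 m as at 3 m, and those of *Nlrc5* differed by the largest factor among the 10 genes. *Tap1*, *Tap2*, *Psmb8* and *Psmb9* were also higher in every 24 m library than in every 3 m library, whereas *Tapbp* and *Psmb10* overlapped. Over all tested genes, 9.74% had every 24 m library above every 3 m library and 5.41% had every one below. Of the 10 genes, 8 had every 24 m library above and 0 had every one below, also without 3 m replicate 2. The first count was 7 with each of 3 other scalings of the libraries and in deposited FPKM. In FPKM the lowest 24 m value of *Tap2* was 9.58 and the highest 3 m value 9.63. The first count was 10 without 3 m replicate 1. The shares over all tested genes are of 6 libraries and were not taken for 5, where fewer 3 m libraries make separate ages easier to reach. The median log2 fold change of the 10 genes was 1.28, against 0.05 over all tested genes, and without 3 m replicate 2 it was 0.92, against 0.03. Because the 10 genes were chosen with earlier results known, these contrasts describe them and are not a test.

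Whether single genes passed a test depended on the tool and on 3 m replicate 2. A gene was called when its Benjamini-Hochberg adjusted p over all tested genes was under 0.05 and its log2 fold change was over 1 in size. By the edgeR quasi-likelihood test on all 6 libraries, 0 of the 10 genes were called higher, as were 0% of all tested genes, whose smallest adjusted p was 0.0800. At an unadjusted p under 0.05, 6 of the 10 genes were higher at 24 m, against 3.56% of all tested genes. DESeq2 called 3 of the 10 higher, *H2-K1*, *H2-D1* and *B2m*, against 1.59% of the genes it tested, and called 0 of the 10 lower, against 0.156%. Without 3 m replicate 2, edgeR called 3 of the 10 higher, *H2-K1*, *B2m* and *Nlrc5*, against 0.506% of genes. In the same 5 libraries DESeq2 called 4, *H2-K1*, *B2m*, *Psmb8* and *Nlrc5*, against 2.49%. With no filter on low counts, edgeR on 6 libraries called *B2m*, *Nlrc5* and *Psmb8*, against 0.739%.

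**Figure D1:**
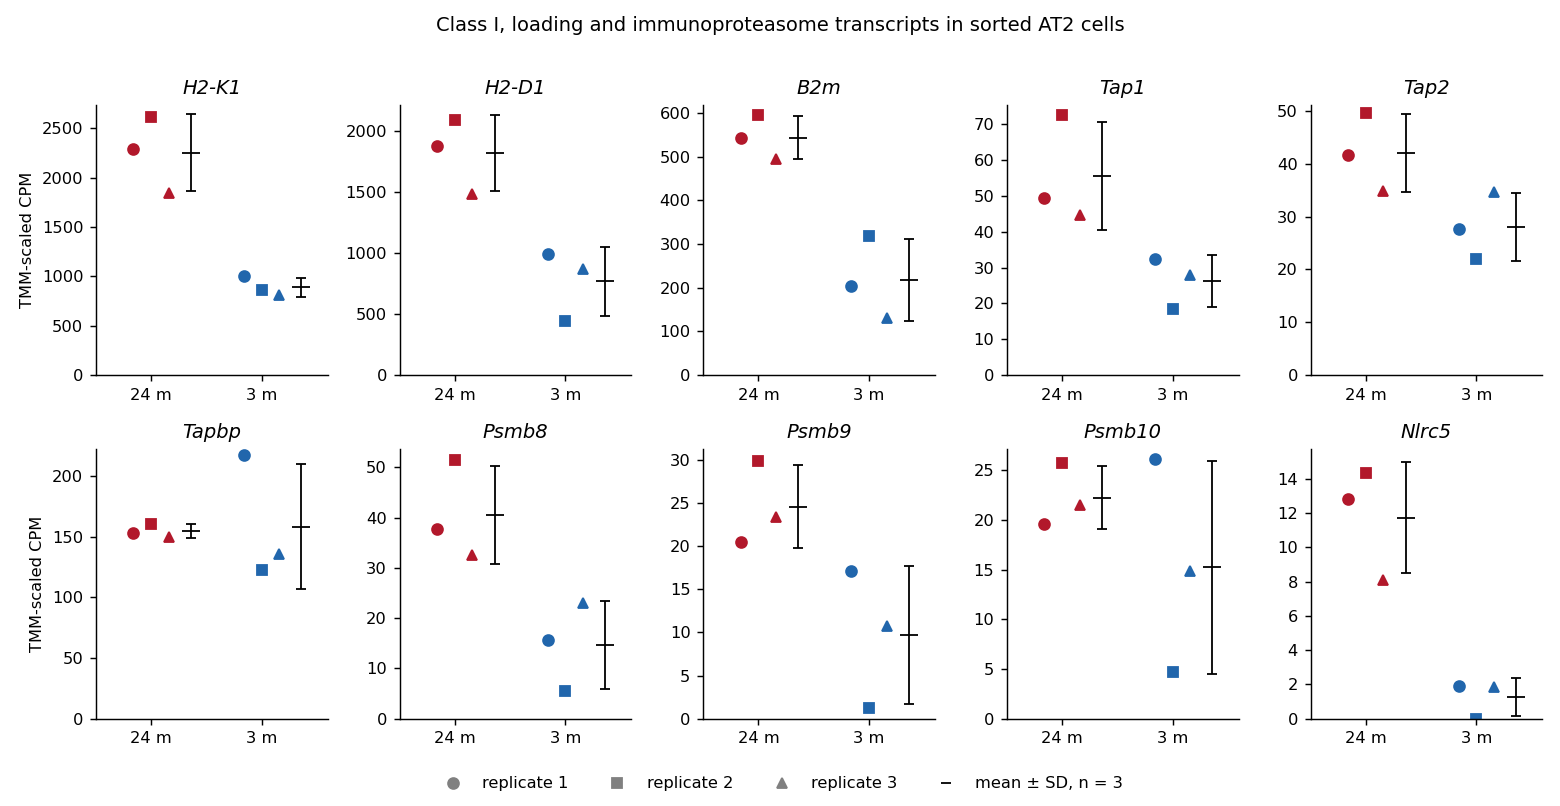
TMM-scaled CPM (vertical axes, from 0) of each of the 10 genes in the 24 m libraries (left, red) and the 3 m libraries (right, blue), with the mean and SD of 3 libraries beside the points. Every 24 m point lies above every 3 m point in 8 panels, while the points of *Tapbp* and *Psmb10* overlap, and 3 m replicate 2 (blue square) is the lowest point in 8 panels.

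*H2-K1*, which encodes the K heavy chain, was at 2295, 2619 and 1843 CPM in 24 m libraries and at 1002, 859 and 817 CPM in 3 m libraries. The lowest 24 m library lay well above the highest 3 m library, and the 3 m libraries lay close together. The 24 m mean of 2252 ± 390 CPM was 2.52 times the 3 m mean of 892 ± 96.8 CPM (SD, n = 3 each). The log2 fold change of *H2-K1* was 1.34 ± 0.24 (SE, edgeR), with an adjusted p of 0.220 by edgeR, 0.000115 by DESeq2 and 0.0175 by edgeR without 3 m replicate 2. *H2-K1* rose at 24 m by DESeq2, and by both tools without that library.

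*H2-D1*, which encodes the D heavy chain, was at 1881, 2094 and 1484 CPM in 24 m libraries and at 991, 447 and 868 CPM in 3 m libraries. The ages did not overlap, and 3 m replicate 2 was low for this gene but not for *H2-K1*. Its 24 m mean of 1820 ± 310 CPM was 2.37 times its 3 m mean of 769 ± 285 CPM (SD, n = 3 each). On the log2 scale the fold change of *H2-D1* was 1.24 ± 0.33 (SE, edgeR), with an adjusted p of 0.536 by edgeR and 0.0349 by DESeq2. Without 3 m replicate 2 the log2 fold change of *H2-D1* was 0.97, under the limit of 1, with an adjusted p of 0.0570 by edgeR and 1.69e-05 by DESeq2.

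*B2m*, the light chain shared by classical and most non-classical class I molecules, was at 543, 594 and 494 CPM in 24 m libraries and at 204, 319 and 132 CPM in 3 m libraries. Here 3 m replicate 2 was the highest of its age, the reverse of its place for *H2-D1*. The 24 m libraries averaged 544 ± 50.2 CPM, which was 2.49 times the 218 ± 94.2 CPM of the 3 m libraries (SD, n = 3 each). On the log2 scale the fold change of *B2m* was 1.32 ± 0.33 (SE, edgeR), with an adjusted p of 0.456 by edgeR and 0.0320 by DESeq2. Over the 5 other libraries the log2 fold change of *B2m* was 1.70 and the adjusted p by edgeR was 0.0109, the smallest of the 10 genes in that fit.

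*Nlrc5* was the least abundant of the 10 genes, at 12.8, 14.3 and 8.06 CPM in 24 m libraries and at 1.93, 0 and 1.87 CPM in 3 m libraries. These levels rest on 380, 427 and 271 counts in 24 m libraries and on 56, 0 and 59 counts in 3 m libraries. *Nlrc5* is 1 of the 693 genes with no count in 3 m replicate 2 and 20 counts or more in every other library. The lowest 24 m library was thus above 4 times the highest 3 m library. The 24 m libraries averaged 11.7 ± 3.27 CPM of *Nlrc5*, against 1.26 ± 1.10 CPM in the 3 m libraries (SD, n = 3 each). The log2 fold change of *Nlrc5* was 3.21 ± 1.15 (SE), with an adjusted p of 0.818 by edgeR and 0.0760 by DESeq2. Without 3 m replicate 2, which held no count of *Nlrc5*, the log2 fold change was 2.63 and the adjusted p 0.0175 by edgeR, so *Nlrc5* rose at 24 m in that fit.

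*Tap1* and *Tap2* encode the chains of the peptide transporter. *Tap1* was at 49.3, 72.6 and 44.6 CPM in 24 m libraries and at 32.4, 18.3 and 28.0 CPM in 3 m libraries. The ages did not overlap, and 24 m replicate 2 was well above the other 24 m libraries. *Tap1* had a log2 fold change of 1.08 ± 0.31 (SE, edgeR), with an unadjusted p of 0.00819, an adjusted p of 0.621 by edgeR and an adjusted p of 0.116 by DESeq2. *Tap2* was at 41.7, 49.7 and 34.9 CPM in 24 m libraries and at 27.7, 21.9 and 34.7 CPM in 3 m libraries. The lowest 24 m and the highest 3 m library were nearly level, so the order of the ages for *Tap2* rests on a small gap. *Tap2* had a log2 fold change of 0.58 ± 0.28 (SE), with an adjusted p of 0.828 by edgeR.

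*Tapbp*, which encodes tapasin, was at 153, 161 and 149.96 CPM in 24 m libraries and at 217, 122 and 136 CPM in 3 m libraries. The 24 m libraries lay inside the range of the 3 m libraries. The log2 fold change of *Tapbp* was -0.03 ± 0.27 (SE), with an adjusted p of 0.983 by edgeR. *Tapbp* shared 10.08% of its 150-base stretches with an antisense transcript, *Gm19412*, which is not in the count table. The strand setting is not given, so reads of that transcript may be among the counts of *Tapbp*. The gene model of *Tapbp* also overlaps that of *Zbtb22* on the same strand, but they shared no 150-base stretch.

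The transporter chains were also compared with each other within each library, in FPKM, a library-scaled count divided by gene length. The *Tap1* to *Tap2* ratio was 0.817, 1.01 and 0.882 in 24 m libraries and 0.810, 0.578 and 0.557 in 3 m libraries. All 24 m libraries were above all 3 m libraries, although the lowest 24 m and the highest 3 m value differed by less than the spread within either age. The log2 difference was 0.49, with an exact two-sided permutation p of 0.1, the smallest that 3 against 3 libraries can give. With the length of the principal transcript in place of that behind the FPKM, the mean ratio was 1.52 at 24 m and 1.09 at 3 m, so which chain was more abundant depended on the length used.

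*Psmb8*, the immunoproteasome subunit that replaces *Psmb5*, was at 37.6, 51.4 and 32.6 CPM in 24 m libraries and at 15.7, 5.41 and 22.97 CPM in 3 m libraries. The ages did not overlap. *Psmb8* had a log2 fold change of 1.47 ± 0.49 (SE, edgeR), with an adjusted p of 0.767 by edgeR and 0.160 by DESeq2. Over the 5 libraries other than 3 m replicate 2 it was 1.07, with an adjusted p of 0.121 by edgeR and 0.0120 by DESeq2. *Psmb9*, which replaces *Psmb6*, was at 20.5, 29.9 and 23.4 CPM in 24 m libraries and at 17.1, 1.18 and 10.8 CPM in 3 m libraries. The ages did not overlap, but the 3 m libraries were widely spread, and 3 m replicate 2 was far below the other 3 m libraries. *Psmb9* had a log2 fold change of 1.34 ± 0.74 (SE) over 6 libraries and 0.82 without 3 m replicate 2, with adjusted p of 0.828 and 0.307 by edgeR. *Psmb10*, which replaces *Psmb7*, was at 19.5, 25.7 and 21.5 CPM in 24 m libraries and at 26.1, 4.67 and 14.9 CPM in 3 m libraries. The highest value of *Psmb10* was in a 3 m library. Its log2 fold change was 0.55 ± 0.54 (SE) with an adjusted p of 0.867 by edgeR, 0.12 without 3 m replicate 2 and 1.19 without 3 m replicate 1.

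**Figure D2:**
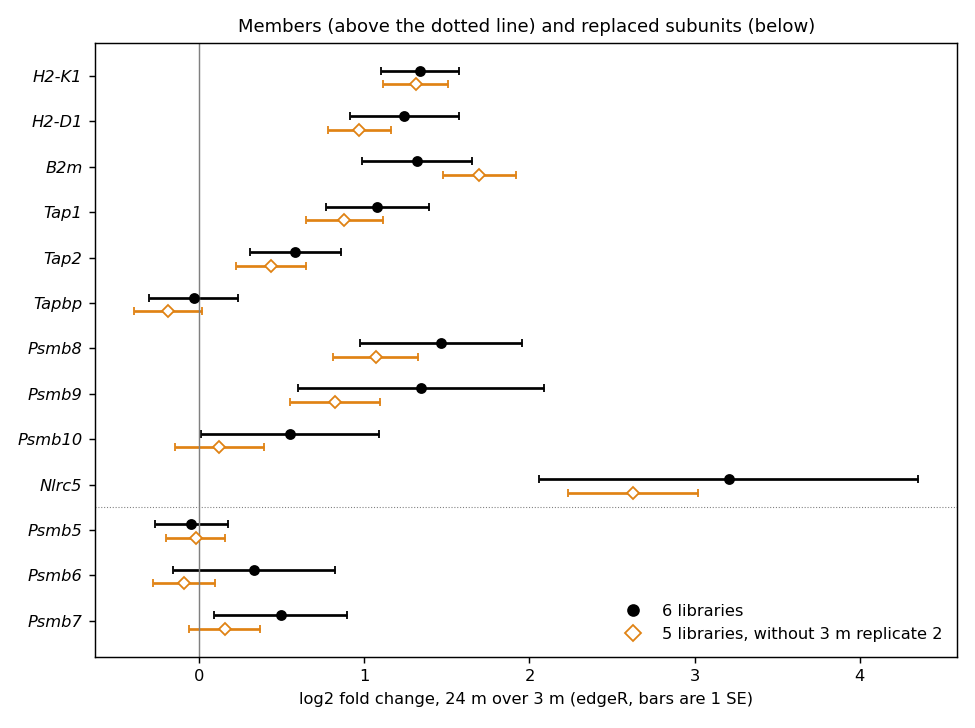
edgeR log2 fold change of 24 m over 3 m (horizontal axis) of the 10 genes and of the 3 replaced proteasome subunits, over 6 libraries (black) and without 3 m replicate 2 (orange diamonds), with bars of 1 SE. Leaving out that library narrows every bar and moves *B2m* up to 1.70 and *Psmb10* down to 0.12, while *Tapbp* and *Psmb5* stay near 0.

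The subunits that the immunoproteasome replaces were set beside it. *Psmb5*, which encodes the constitutive chymotrypsin-like subunit, was at 41.7, 37.4 and 44.9 CPM in 24 m libraries and at 43.4, 44.1 and 40.7 CPM in 3 m libraries, with a log2 fold change of -0.05 ± 0.22 (SE). *Psmb6* was at 56.1, 71.8 and 59.0 CPM in 24 m libraries and at 73.1, 15.6 and 59.7 CPM in 3 m libraries, with a log2 fold change of 0.33. *Psmb7* was at 32.6, 49.9 and 44.1 CPM in 24 m libraries and at 37.2, 14.0 and 38.8 CPM in 3 m libraries, with a log2 fold change of 0.49. All of them overlapped between the ages, and the low values of *Psmb6* and *Psmb7* were both in 3 m replicate 2.

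The share of the immunosubunits among all 6 catalytic subunits, by FPKM, was 24.7%, 28.9% and 23.3% in 24 m libraries and 20.05%, 7.05% and 17.2% in 3 m libraries. All 24 m libraries were above all 3 m libraries. The mean share was 25.6% ± 2.93 at 24 m and 14.8% ± 6.84 at 3 m (SD, n = 3 each), a difference of 10.9 percentage points with an exact two-sided permutation p of 0.1, the smallest possible. The mean share at 3 m was 18.6% without 3 m replicate 2. With principal transcript lengths the share was 27.1% ± 2.34 at 24 m and 15.4% ± 5.85 at 3 m (SD, n = 3 each).

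The pairs did not contribute alike. The *Psmb8* to *Psmb5* ratio was 0.240, 0.365 and 0.193 in 24 m libraries and 0.0960, 0.0326 and 0.150 in 3 m libraries, without overlap. The *Psmb9* to *Psmb6* ratio was 0.187, 0.213 and 0.202 in 24 m libraries and 0.120, 0.0386 and 0.0921 in 3 m libraries, again without overlap and with the 24 m libraries close together. The exact two-sided permutation p was 0.1 for both, the smallest possible. The *Psmb10* to *Psmb7* ratio was 1.20, 1.03 and 0.977 in 24 m libraries and 1.41, 0.671 and 0.769 in 3 m libraries, which overlapped (exact permutation p = 0.5). The share and the ratios within libraries made 7 comparisons, and over these the smallest Benjamini-Hochberg adjusted value of the exact permutation p was 0.175.

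**Figure D3:**
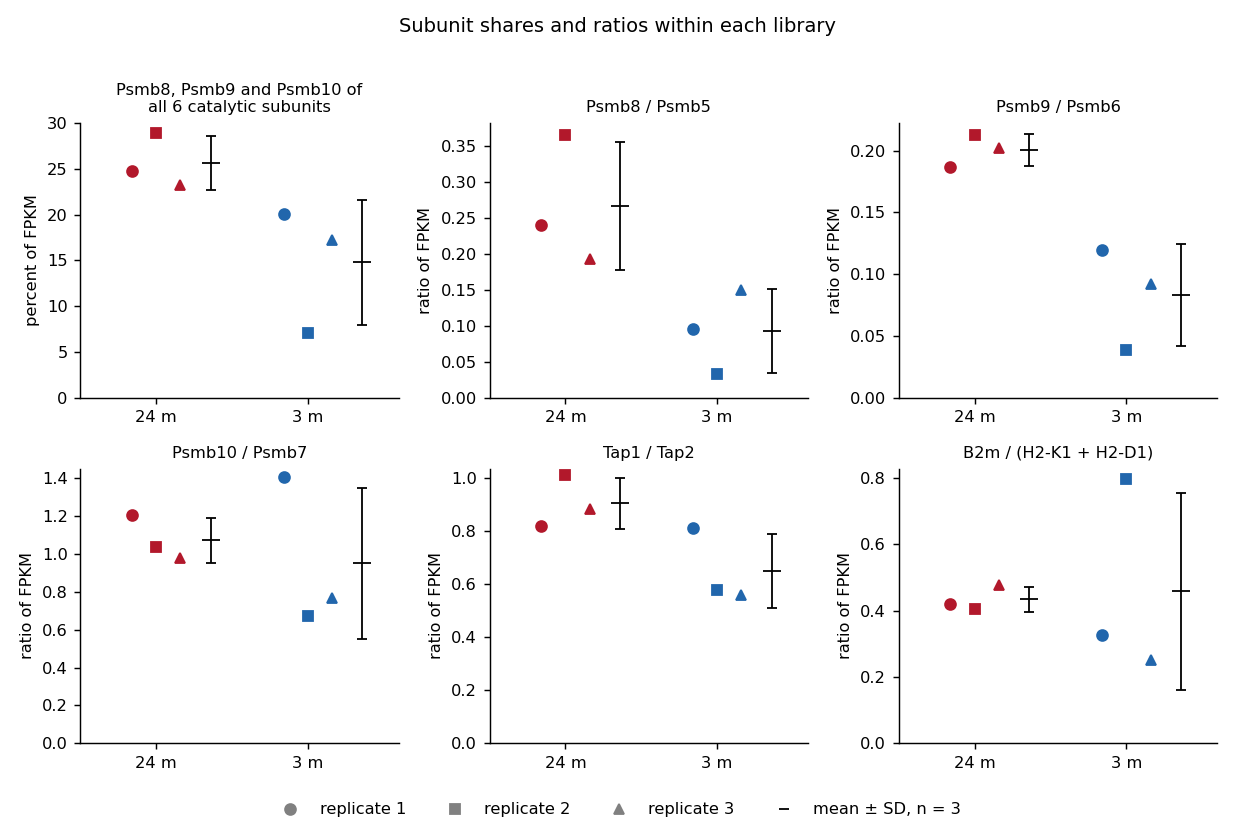
Share of the 3 immunosubunits among the 6 catalytic subunits (percent of FPKM) and 5 ratios of FPKM within each library (vertical axes, from 0), for 24 m libraries (left, red) and 3 m libraries (right, blue), with the mean and SD of 3 libraries. The ages are separate for the share, *Psmb8* over *Psmb5*, *Psmb9* over *Psmb6* and *Tap1* over *Tap2*, and they overlap for *Psmb10* over *Psmb7* and for *B2m* over the heavy chains.

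The proportions among heavy and light chains overlapped between the ages. The *H2-D1* to *H2-K1* ratio by FPKM was 0.934, 0.911 and 0.917 in 24 m libraries and 1.13, 0.594 and 1.21 in 3 m libraries. The 24 m libraries were almost identical and lay within the wide range of the 3 m libraries (exact permutation p = 1). With principal transcript lengths the mean of this ratio was 0.622 at 24 m and 0.661 at 3 m. That puts *H2-D1* below *H2-K1* in every library, whereas by FPKM *H2-D1* was above *H2-K1* in 3 m replicates 1 and 3. The ratio of *B2m* to the sum of both heavy chains was 0.418, 0.406 and 0.478 in 24 m libraries and 0.327, 0.796 and 0.250 in 3 m libraries. The 3 m range enclosed the 24 m range (exact permutation p = 0.9), and its highest value was in 3 m replicate 2. The mean was 0.434 at 24 m, against 0.288 at 3 m without that library.

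Per length, at 24 m *H2-K1*, *H2-D1* and *B2m* averaged 787 ± 130, 725 ± 117 and 650 ± 54.2 FPKM, and at 3 m 294 ± 25.7, 292 ± 114 and 242 ± 92.2 FPKM (SD, n = 3 each). Neighbours among these genes overlapped at both ages, and all of them were above each of the other 7 genes in every library. *Tapbp* came next of the 10, at 43.8 ± 1.20 FPKM at 24 m and 42.2 ± 12.9 FPKM at 3 m (SD, n = 3 each). *Psmb10*, *Psmb8* and *Tap2* averaged 13.4, 12.3 and 11.4 FPKM at 24 m, with *Tap1* next below them. At 3 m *Psmb10*, *Tap2*, *Tap1* and *Psmb8* averaged 8.70, 7.29, 4.68 and 4.33 FPKM. Neighbours in these orders overlapped at both ages. *Psmb9* followed with 6.90 ± 1.31 FPKM at 24 m and 2.60 ± 2.10 FPKM at 3 m, and *Nlrc5* followed as the lowest with 1.42 ± 0.384 FPKM at 24 m and 0.148 ± 0.129 FPKM at 3 m (SD, n = 3 each). With principal transcript lengths, an alternative chosen after the data were seen, the chains, then *Tapbp*, stayed on top and *Nlrc5* lowest, but *Psmb8*, *Tap1*, *Psmb9*, *Psmb10* and *Tap2* averaged 25.6, 19.3, 18.7, 17.4 and 12.6 FPKM at 24 m, so the order of these 5 genes depended on the length used. *H2-K1* alone took 0.231% of all counts at 24 m and 0.0865% at 3 m.

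The libraries of one age differed in a shared way across the 10 genes. Among 24 m libraries, replicate 2 was the highest for 10 of 10 genes, whereas 34.4% of all tested genes were highest there. Replicate 3 was the lowest 24 m library for 8 of 10, against 32.1% of tested genes. Among 3 m libraries, replicate 2 was the lowest for 8 of 10 genes, against 49.5% of tested genes, and *B2m* and *H2-K1* were the exceptions. The 24 m replicate 2 library also had the highest *Ptprc* of all libraries. The 12 leukocyte markers summed to between 309 and 489 CPM in 24 m libraries and between 342 and 404 CPM in 3 m libraries. *Lcp1* and *Cytip* carried most of that sum. The other 10 leukocyte markers, a choice made after the values were seen, summed to 29.3, 94.8 and 8.66 CPM in 24 m libraries and to 0.654, 7.34 and 3.67 CPM in 3 m libraries, so the ages were separate and 24 m replicate 2 was the highest, as for the 10 class I pathway genes. Of these markers, *Itgb2*, *Itgal*, *Cd53* and *Vav1* were at 0 in every 3 m library. The 8 B and plasma cell markers summed to between 38.0 and 136 CPM at 24 m and between 9.01 and 25.2 CPM at 3 m. The 11 macrophage and dendritic markers other than *Lyz2*, which AT2 cells express too, came to between 14.3 and 50.2 CPM at 24 m and between 3.06 and 10.6 CPM at 3 m. T and NK markers summed to between 1.10 and 9.35 CPM at 24 m and between 0 and 1.11 CPM at 3 m. Airway secretory and ciliated markers other than *Scgb1a1* summed to between 208 and 389 CPM at 24 m and between 25.8 and 90.9 CPM at 3 m, and of the 7 markers with it 4 had separate ages and DESeq2 called 3 higher. Endothelial markers other than *Egfl7* summed to between 3.81 and 19.0 CPM at 24 m and between 1.23 and 2.71 CPM at 3 m. With *Scgb1a1* the airway sum was between 614 and 1218 CPM at 24 m and between 281 and 738 CPM at 3 m. With *Egfl7* the endothelial sum was between 8.45 and 25.1 CPM at 24 m and between 3.03 and 10.98 CPM at 3 m. Both of these sums overlapped. Sums of 7 fibroblast markers also overlapped, at 6.49 to 29.3 CPM (24 m) and 2.96 to 14.4 CPM (3 m). Those of 6 AT1 markers did too, at 1581 to 1903 CPM (24 m) and 967 to 1801 CPM (3 m). Some markers of other cells, but not all lists, were thus higher at 24 m together with the class I pathway genes. The part of those cells in the differences was not tested.

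The other proteasome genes had fold changes on both sides of 0. Of 12 other 20S core and maturation genes, 4 had a fold change above 0 and 8 below, 0 were called by edgeR or DESeq2 or had an unadjusted edgeR p under 0.05, and their median log2 fold change was -0.12. For none of them were the ages separate. *Psma6*, an alpha subunit, had the smallest unadjusted p of the list, at 46.7, 47.3 and 54.9 CPM in 24 m libraries and 62.6, 151 and 43.6 CPM in 3 m libraries. *Pomp*, the maturation factor, *Psma1* and *Psma5* had log2 fold changes of -0.48, -0.24 and -0.32, with adjusted p of at least 0.830 by edgeR. The 4 proteasome activator genes *Psme1* to *Psme3*, which encode PA28, and *Psme4*, which encodes PA200, had a median log2 fold change of -0.16, with 0.00 for *Psme1*, -0.33 for *Psme2*, 0.06 for *Psme3* and -0.31 for *Psme4*. *Psme1* and *Psme2*, which interferon-gamma induces together with the immunosubunits, overlapped between the ages over 6 libraries. Without 3 m replicate 2 all 24 m libraries lay below the 3 m libraries for *Psme2* (log2 fold change -0.38, adjusted p = 0.675 by edgeR). They lay above for *Psme3* (log2 fold change 0.14) and overlapped for *Psme1*.

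Of 10 other genes of peptide trimming, loading and class I folding, not all of them ER genes, 3 had a fold change above 0. Of these 10, 0 were called by edgeR or DESeq2, and 1, *Ide*, had an unadjusted edgeR p under 0.05. The median log2 fold change of this list was -0.37 over 6 libraries and -0.01 without 3 m replicate 2. *Canx*, which encodes the chaperone calnexin, was at 253, 282 and 296 CPM in 24 m libraries and at 333, 554 and 343 CPM in 3 m libraries. It was the only gene of the list whose 24 m libraries all lay below the 3 m libraries (log2 fold change -0.56, adjusted p = 0.828 by edgeR). *Erap1*, the ER aminopeptidase that trims class I peptides, was at 35.1, 47.7 and 47.4 CPM in 24 m libraries and at 41.9, 117 and 46.9 CPM in 3 m libraries. The peptidases *Ide* and *Lnpep* had log2 fold changes of -1.16 and -0.79 over 6 libraries and -0.30 and 0.02 without 3 m replicate 2.

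Among 23 transcription factors, receptors and kinases that act on class I genes, 11 had a fold change above 0. The ages were separate with 24 m higher for 3 and with 24 m lower for 2, and the median log2 fold change was -0.05. *Irf1*, an interferon regulatory factor that binds class I and immunoproteasome promoters, was the one gene of the list that DESeq2 called. It was at 85.5, 98.7 and 52.8 CPM in 24 m libraries and at 32.3, 17.5 and 29.1 CPM in 3 m libraries. *Irf1* had a log2 fold change of 1.59 ± 0.34 (SE), with an adjusted p of 0.317 by edgeR and 0.00492 by DESeq2, and of 0.0476 by edgeR without 3 m replicate 2. Its order among the 24 m libraries was the one seen for 8 of the 10 class I pathway genes, highest in replicate 2 and lowest in replicate 3. *Irf9*, another interferon regulatory factor, had a log2 fold change of 0.69, an unadjusted p of 0.0389 and an adjusted p of 0.828 by edgeR, and its ages were separate. *Jak2* and *Creb1* had log2 fold changes of -0.67 and -1.07 over 6 libraries and -0.23 and -0.25 without 3 m replicate 2.

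MHC class II pathway genes were compared for scale. The sort antibody was against the class II proteins I-A and I-E, so not every gene on this list encodes a sorted protein. All 7 had a fold change above 0 and 4 had separate ages with 24 m higher, their median log2 fold change was 0.61, and neither edgeR nor DESeq2 called any on 6 libraries, while 2 had an unadjusted edgeR p under 0.05. *H2-Ab1* was at 724, 999.7 and 743 CPM in 24 m libraries and at 525, 225 and 477 CPM in 3 m libraries (log2 fold change 1.01, adjusted p = 0.783 by edgeR). *H2-Eb1* and *H2-Aa* had log2 fold changes of 0.85 and 0.61. *Cd74*, the invariant chain, was at 3718, 4545 and 3175 CPM in 24 m libraries and at 4743, 1896 and 2807 CPM in 3 m libraries, and *Ciita*, the class II transactivator and a relative of *Nlrc5*, had a log2 fold change of 0.51 ± 0.31 (SE). Both overlapped between the ages.

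Non-classical class I genes had a list median near that of the 10 genes. Of 25 listed, 19 were in the table and 13 were tested. Of those 13, 12 had a fold change above 0, 10 had every 24 m library above every 3 m library, and DESeq2 called 5 higher. Their median log2 fold change was 1.22. *H2-Q5*, *H2-Q6* and *H2-Q7* had log2 fold changes of 3.76, 4.52 and 4.08, and *H2-Q4*, the most abundant of the Q genes named, was at 203, 226 and 139 CPM in 24 m libraries and at 76.6, 31.8 and 63.8 CPM in 3 m libraries. These genes are near copies of each other, so reads may have been split among them. *H2-D1* shared 1.35% of its 150-base stretches with *H2-Q1*, which was at most at 0.327 CPM in any library, and *H2-K1* and *B2m* shared none with any other gene. *Tap1* and *Psmb9* overlap head to head by 212 bases, with 1.04% and 1.46% of their stretches in common, and *Psmb8* shared 4.55% of its stretches with an antisense transcript.

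**Figure D4:**
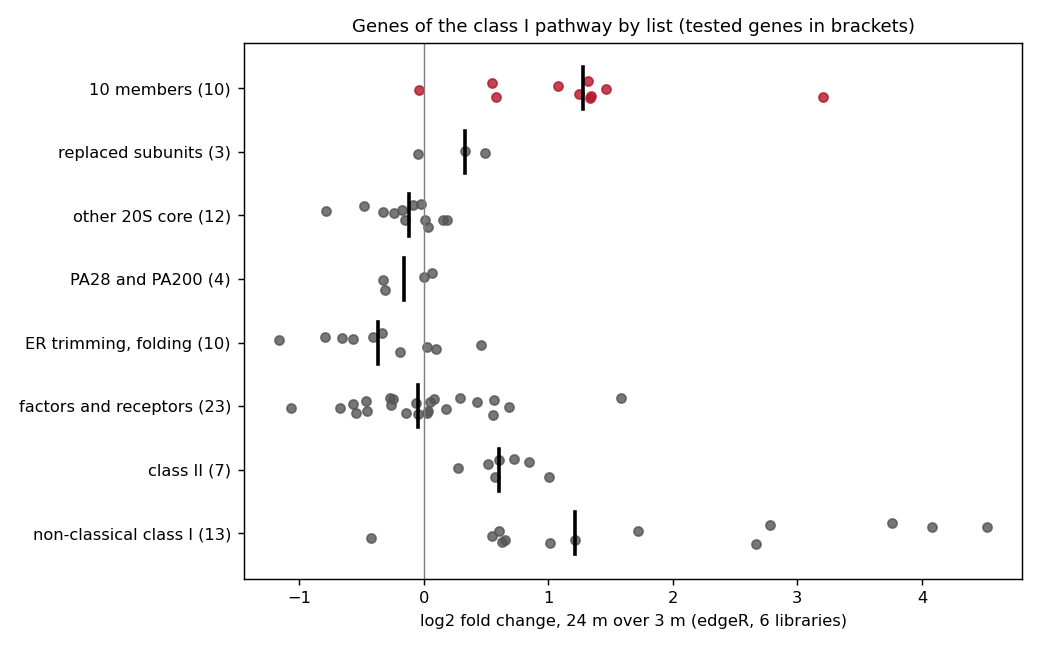
edgeR log2 fold change of 24 m over 3 m (horizontal axis, 6 libraries) of every tested gene (points) of the 10 class I pathway genes and of 7 other lists, with the list median as a vertical bar. The medians of the 10 genes and of the non-classical class I genes lie at 1.28 and 1.22, and that of the class II genes at 0.61. Those of the other 20S core, PA28 and PA200, trimming and folding (labelled ER) and factor lists lie between -0.37 and -0.05.

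The genes whose levels ran most like the mean of the 10 over the 6 libraries were *Dmkn*, *Itga7*, *Psd*, *Hk2* and *Slc3a2*. Their root mean square distances to it, in log2 CPM, were 0.172, 0.182, 0.183, 0.197 and 0.199, against a median of 0.930 over the 8508 genes compared. Of the 10 genes themselves, *H2-D1* was nearest to their mean at 0.183 and *Nlrc5* farthest at 2.11. Without 3 m replicate 2 these 5 genes ranked 15, 28, 52, 48 and 61, so 0 of them stayed among the nearest 5. *Hk2*, which encodes hexokinase 2, was at 173, 153 and 142 CPM in 24 m libraries and at 73.2, 31.7 and 78.1 CPM in 3 m libraries.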

How the data were processed

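The cells of several mice were pooled for each of the 3 libraries per age, sequenced as paired 150-base reads, and counted. The authors deposited whole-number counts per gene, and FPKM computed from the same counts and a gene length. The submitters' notes name HISAT2, featureCounts, DESeq2 and GRCm39; versions, strand setting and the treatment of multiply mapped reads are not given in the sources used here. The deposited counts were fitted with edgeR 4.0.16 (TMM, filterByExpr, quasi-likelihood test; R 4.3.3) over all 24224 genes, of which 9325 were filtered out. CPM are TMM-scaled. Deposited FPKM served only for ratios and levels between genes, and as an alternative for the count of genes with separate ages. DESeq2 1.42.0, limma-voom (limma 3.58.1), other scalings and filters, and leaving out each library were alternatives. The edgeR code was tested on simulated data. P-values measure the spread between pools.

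No 2 libraries were copies. Members and lists were chosen with earlier results of these data known. Named were the 10 genes, the 3 replaced subunits, up to 4 genes of each pathway list with the smallest unadjusted p, *Cd74*, *Ciita*, *Irf1*, the sort markers and the 5 nearest genes, and 1 further gene that the rule named is not reported here; other marker genes were named after their values were seen. Promoters came from RefSeq, and overlaps, transcript lengths and shared 150-base stretches from GENCODE vM21.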

Additional observations from a re-analysis of the deposited data

How the results depend on the processing

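The count of the 10 genes called higher at 24 m was 0 by edgeR, 0 by limma-voom and 3 by DESeq2. By edgeR it was also 0 with each of the 3 other scalings, with at least 1 CPM in 3 libraries, and with no limit on the fold change. It was 3 by edgeR with no filter on low counts, and 4 by DESeq2 without 3 m replicate 2. Leaving out 1 library at a time gave 0 to 3 by edgeR, with the 3 found without 3 m replicate 2. The cause of these differences was not tested. No gene was called lower under any alternative. Of 150 refits of single genes, 133 kept direction and side of the threshold, 13 newly passed it and 4 turned, all for *Tapbp*: its log2 fold change was 0.012 by limma-voom, 0.053 with library totals only, 0.013 with the replicate block, and -0.19 to 0.27 with 1 library left out, the highest without 3 m replicate 1. With the replicate number as a block, 0 of the 10 genes were called; same-numbered libraries deviated from their age means with correlations of 0.010, -0.042 and -0.077, so the numbers gave no pairing.

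With 1 library left out, the log2 difference of the *H2-D1* to *H2-K1* ratio ranged from -0.34 to 0.17, and that of *B2m* to the heavy chains from -0.24 to 0.60; both changed sign without 3 m replicate 1 and without 3 m replicate 3. None of the 5 nearest genes was kept without 3 m replicate 2. All differences rest on 3 pools per age, and *Nlrc5*, with at most 59 counts in a 3 m library, is limited most by depth.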
